A study of Mus musculus with 6 samples.

Results

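The 8 heat shock chaperone genes described here are Hspa1a, Hspa1b, Hsph1, Dnajb1, Hspb1, Hsp90aa1, Hspa8 and Hsp90ab1, chosen by name out of 32285 gene symbols. The first 6 are treated as stress-inducible members. The other two, Hspa8 and Hsp90ab1, are treated as constitutive members. The study profiled single cells from the sciatic nerves of C57BL6/J mice, 23 weeks old, on a diet labelled SD or one labelled HFD. The count table calls the SD libraries Ctrl. Chopped nerve was digested with warm enzymes, Schwann cells were enriched on anti-O4 magnetic beads, and droplet libraries were made from the 3′ ends of transcripts. Cells were present for 3 SD libraries (SD1, SD2, SD3) and 2 HFD libraries (HFD1, HFD2). The labels do not say whether each came from its own animals, so part of the spread between libraries may be technical. Exact permutation and sign-flip p-values below read a gene's own spread between libraries. The edgeR p-values also draw on the spread of all genes tested.

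Heat shock chaperones bind unfolded proteins and keep them from aggregating. Under stress the transcription factor HSF1 binds heat shock elements, alternating GAA and TTC units in promoters, and switches on the inducible members, while the constitutive members serve normal folding in unstressed cells. Tissue dissociation is known to induce heat shock and immediate early genes in many cell types.

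Hspa1a and Hspa1b encode the inducible cytosolic HSP70 and lie as neighbouring copies on the minus strand of chromosome 17, Hspa1a at chr17:34969190-34972156 and Hspa1b at chr17:34956436-34959238 (GRCm38, GENCODE M21). Both promoters are compared here because the copies differed in where their transcripts were found. RefSeq promoter windows (GRCm38.p6) were matched for 5 of the 8 genes, all of them inducible. The 250 bases upstream of the Hspa1a start are at chr17:34972157-34972406, minus strand, with a match to GAANNTTC in capitals.
Hspa1a: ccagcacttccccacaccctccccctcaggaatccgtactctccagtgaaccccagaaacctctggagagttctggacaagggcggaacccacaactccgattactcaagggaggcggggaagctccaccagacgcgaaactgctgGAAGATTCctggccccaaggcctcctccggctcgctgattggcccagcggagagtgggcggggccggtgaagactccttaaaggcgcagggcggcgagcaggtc
The window of Hspa1b, at chr17:34959239-34959488, minus strand, was 98.8% identical, with 3 differing bases out of 250, C44T, T47C and T249G (Hspa1a base, position from 1 at the 5′ end of the window, Hspa1b base). The capital match lay 104 to 97 bases upstream of the start in both copies and was the same in both.

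The same search, for GAANNTTC or TTCNNGAA (each its own reverse complement), found 1 match upstream of Hsph1, 2 upstream of Hspb1 and 0 in either of the windows of Dnajb1. The second Dnajb1 window, at chr8:83608298-83608547, lies inside the gene as placed by GENCODE M21 (chr8:83608193-83612653). Of the 27025 genes in the table, 14.5% held such a match in 250 upstream bases. No window of the 5 genes held a match of 3 units (GAANNTTCNNGAA or TTCNNGAANNTTC), which 0.514% of genes held. A match in these letters is a description and shows no binding. The matched windows follow with the match in capitals, Hsph1 at chr5:149636346-149636385, minus strand, and Hspb1 at chr5:135887786-135887845, plus strand.
Hsph1: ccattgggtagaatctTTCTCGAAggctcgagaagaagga
Hspb1: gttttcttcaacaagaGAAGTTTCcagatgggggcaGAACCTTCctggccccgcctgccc

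The 2 transcripts, unlike the promoters, differed near their 3′ ends, where this chemistry reads. Of all 50-base windows along the Hspa1a transcript, 58.8% also occurred in the Hspa1b transcript, and of those in the last 500 bases 0% did, in either direction. Reads that fall in the shared part cannot be assigned to one copy, so the split between the copies remains uncertain.

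The 5 libraries held 364 cells and 1155624 UMIs (unique molecular identifiers, counts of distinct transcripts), from 37744 UMIs in SD3 to 349450 in HFD1. The deposited annotation gave 5 clusters. Cluster 0, named Macrophages by the authors, held 143 cells, and all 15 macrophage markers were detected over these cells together. By the marker classes used below, 132 of them were macrophage-marker cells and 2 Schwann-marker cells. Cluster 2, named SCP, held 60 cells and is used here as the Schwann class. All 14 myelinating Schwann markers were detected over its cells together. Of 7 non-myelinating Schwann markers 5 were detected in cluster 2, summing to 0 to 507 CPM over the libraries. The macrophage markers summed to 38128 to 52105 CPM over the libraries in cluster 0 and to 48.2 to 167 CPM in cluster 2, where Csf1r, Fcgr3, Aif1, Ms4a7 and Ctss were at 0. Cluster 4, named nmSC, held 24 cells in which all 7 fibroblast and all 7 endothelial markers were found. Sox10, which specifies Schwann cells, had no UMI there, against its name. Nor had 4 of 7 non-myelinating Schwann markers (Ncam1, L1cam, Gfap and Chl1), though Gfap had none in any cell. The other 3, Scn7a, Ngfr and Cdh2, were detected. They summed to 81.3 to 584 CPM over the libraries, against 19089 to 68051 CPM for the fibroblast markers. Levels are CPM, the UMIs of a gene scaled to a common total over all UMIs of that library and cluster, with no further scaling. Since 3′ tags are counted, UMIs do not grow with transcript length. SD3 carried 8 cells and 8291 UMIs in cluster 0, so that a count of 0 there allows up to 361.8 CPM, and HFD1 carried 3 cells in cluster 2, where a count of 0 allows up to 200.4 CPM (3 counts, counting error only). No cell barcode was shared between libraries.

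The chaperone UMIs numbered 1970, of which the constitutive members gave 1489 and the inducible members 481. Hspa8 had 817 UMIs in 179 cells and Hsp90ab1 672 in 188 cells. Hsp90aa1 had 207 UMIs, Hspa1a 149, Dnajb1 62, Hspb1 30, Hspa1b 25 and Hsph1 8. Macrophages held 50.4% of all UMIs and cluster 2 held 21.6%, and each gene's distribution can be read against those shares. The HSP90 genes lay close to them, with 50.3% of Hsp90ab1 and 50.7% of Hsp90aa1 UMIs in macrophages. Hspa1a stood apart with 88.6% in macrophages, and Hspb1 with 96.7% in cluster 4.

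**Figure D1:**
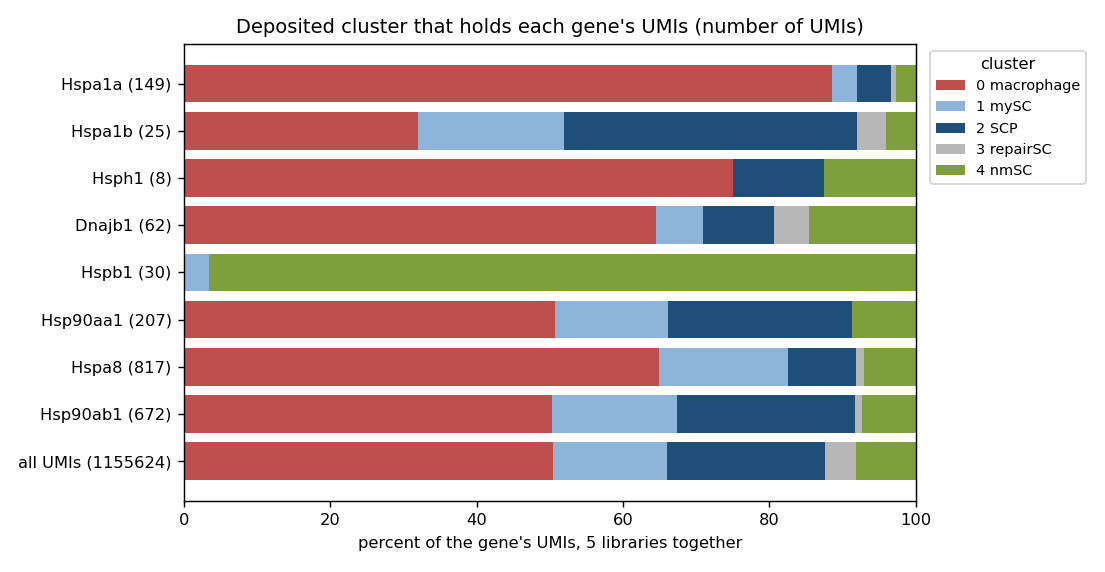
Percent of each gene's UMIs (x axis) in each deposited cluster, 5 libraries together, with the number of UMIs in parentheses and all UMIs as the last bar. Hspa1a was 88.6% in cluster 0, Hspb1 96.7% in cluster 4 and Hspa1b 40% in cluster 2, against 50.4%, 8.13% and 21.6% of all UMIs.

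Hspa1a, the inducible HSP70, was higher in macrophages than in cluster 2 in 4 of 5 libraries, with few cells carrying most of it. In macrophages its level was 83.6 CPM in SD1, 535.4 in SD2, 0 in SD3, 223.5 in HFD1 and 255.2 in HFD2. In cluster 2 Schwann cells it was 51.3 CPM in SD1, 20.4 in SD2, 0 in SD3, 0 in HFD1 and 23.0 in HFD2. Macrophages were higher in each of the 4 libraries with any Hspa1a UMI, by 1.63-fold in SD1, 26.2-fold in SD2 and 11.1-fold in HFD2, and against a count of 0 in HFD1. The cluster 2 levels in these folds rest on 4 UMIs in SD1, 1 in SD2 and 2 in HFD2, so the size of the folds is uncertain. The mean difference was 201 ± 205 CPM (SD of the differences, n = 5; exact two-sided sign-flip test p = 0.125, the smallest possible p being 0.0625).

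Few cells carried this transcript. Of the 149 Hspa1a UMIs, 57.0% lay in 5 cells, and 21 of 143 macrophages had any (14.7%, exact 95% interval 9.33 to 21.6%). A single SD2 macrophage of 9381 UMIs held 30 of the 33 Hspa1a UMIs of its library and cluster. Without that cell the SD2 macrophage level was 57.4 CPM in place of 535.4. That was above the 20.4 CPM of cluster 2 in that library, but on 3 UMIs against 1. The level over all macrophages was 226.8 CPM with the cell and 178.1 without it, against 28.1 CPM in all cluster 2 cells. Thinned to 500 UMIs per cell, which left out 28 macrophages and 2 cluster 2 cells, 6.50% of macrophages and 1.36% of cluster 2 cells would show a Hspa1a UMI, compared with 18.3% and 10.3% of the same cells before thinning.

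Macrophages of at least 500 UMIs with a Hspa1a UMI numbered 21 and those without 94. Their median depths differed, at 8990 and 1450.5 UMIs, so the presence of a UMI reads depth as well as level. Hspa8 stood at 1109 CPM in the cells with Hspa1a and at 833.2 CPM in those without, and it was higher in the cells with Hspa1a in each of the 4 libraries that had both. Dnajb1, the HSP40 co-chaperone of HSP70, was at 35.0 CPM with Hspa1a and 79.4 CPM without, lower with Hspa1a in 3 of the 4 libraries and higher in HFD2 (91.9 against 33.1 CPM). The cell richest in Dnajb1, with 13 UMIs, and that richest in Hspa1a were different cells, and each had 0 UMIs of the other gene. The summed level of 20 immediate early genes was 53997 CPM in the cells with Hspa1a and 38378 CPM in those without, and it was higher in 3 of 4 libraries. The part of depth or of immediate early expression in these values was not tested.

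Hspa1b, the neighbouring HSP70 copy, had a different distribution. In macrophages it was at 6.97 CPM in SD1, 16.2 in SD2, 0 in SD3, 17.9 in HFD1 and 13.8 in HFD2. In cluster 2 it was at 38.4, 0, 0, 66.8 and 69.1 CPM in the same order of libraries. Cluster 2 was higher in 3 libraries and macrophages in 1, and the difference was within the spread (macrophages minus cluster 2 −23.9 ± 31.0 CPM, n = 5; exact sign-flip p = 0.25).

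The share of Hspa1a in the UMIs of both copies was higher in macrophages than in cluster 2, without a test. In macrophages 132 UMIs were Hspa1a and 8 were Hspa1b, a share of 94.3% (exact 95% interval 89.1 to 97.5%, counting error only). The share was 92.3% in SD1, 97.1% in SD2, 92.6% in HFD1 and 94.9% in HFD2. In cluster 2 there were 7 Hspa1a and 10 Hspa1b UMIs, a share of 41.2% (18.4 to 67.1%). It was 57.1% of 7 UMIs in SD1 and 25% of 8 in HFD2, and SD2 and HFD1 held 1 UMI each. In both SD1 and HFD2 the share was lower in cluster 2 than in macrophages, and with so few UMIs no test was made. Of 49 cells with either copy in the whole data set, 3 had both.

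**Figure D2:**
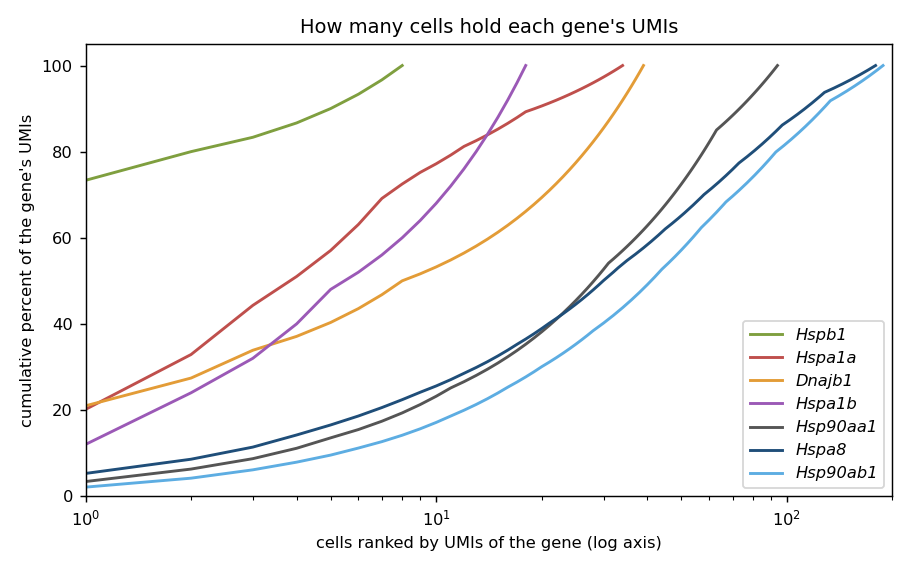
Cumulative percent of a gene's UMIs (y axis) against the number of cells ranked by their UMIs of that gene (log x axis), all 364 cells together, for the 7 genes other than Hsph1. The curve of Hspb1 starts at 73.3% in 1 cell and that of Hspa1a reaches 57.0% at 5 cells, while Hsp90ab1 reaches 9.52% at 5 cells.

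Dnajb1, which stimulates the ATPase of HSP70, was low in both classes. It stood in macrophages at 118 CPM in SD1, 64.9 in SD2, 0 in SD3, 58.1 in HFD1 and 41.4 in HFD2. In cluster 2 it stood at 12.8, 40.9, 0, 0 and 34.5 CPM. Macrophages were higher in 4 libraries and no library went the other way, with a mean difference of 38.9 ± 43.6 CPM (n = 5; exact sign-flip p = 0.125). Of the 17 SD1 macrophage UMIs 13 were in 1 cell, and without it SD1 fell to 29.4 CPM. That was above the 12.8 CPM of cluster 2, but on 4 UMIs against 1. Hsph1, an HSP110 nucleotide exchange factor of HSP70, had 8 UMIs in 6 cells, 6 of them in macrophages, and no comparison was made at that depth.

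Hspb1, a small heat shock protein that holds unfolded clients without ATP, was at 0 UMIs in all 143 macrophages and all 60 cluster 2 cells. Those counts allow up to 5.15 CPM in macrophages and 12 CPM in cluster 2 (3 counts). Of its 30 UMIs, 29 were in cluster 4, at 208.7 CPM in SD1, 0 in SD2, 40.6 in HFD1 and 809.4 in HFD2. One HFD2 cell of 7279 UMIs held 22 of them, with 88 UMIs of endothelial markers and 0 of fibroblast markers. Without it the HFD2 level fell to 89.4 CPM. In cluster 4, the 4 cells with more endothelial than fibroblast marker UMIs held 26 Hspb1 UMIs in 4 cells, and the 20 cells with more fibroblast than endothelial UMIs held 3 Hspb1 UMIs in 3 cells.

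Cryab, the related small heat shock protein alphaB-crystallin, is no member but gives the contrast. It was at 3396 CPM in SD1, 2125 in SD2, 3037 in SD3, 2137 in HFD1 and 2015 in HFD2 in cluster 2, and at 0 UMIs in macrophages of all 5 libraries. Over all cells of each class cluster 2 was at least 497-fold higher, counting 3 UMIs over all macrophages as the floor. In cluster 4 Cryab reached 42.6 ± 57.6 CPM (SD, n = 4). None of the 8 cells with a Hspb1 UMI had a Cryab UMI.

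Hsp90aa1, the inducible cytosolic HSP90, did not separate macrophages from Schwann cells. Its macrophage level was 188 CPM in SD1, 162 in SD2, 0 in SD3, 170 in HFD1 and 207 in HFD2. In cluster 2 it was 295, 102, 241, 66.8 and 207 CPM. Macrophages were higher in 2 libraries and cluster 2 in 3, among them HFD2 with 206.9 CPM in macrophages and 207.2 CPM in cluster 2, and the mean difference was −36.9 ± 139 CPM (macrophages minus cluster 2, n = 5; exact sign-flip p = 0.562).

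Hsp90ab1, the constitutive HSP90, was detected in more cells than any other member. In macrophages it was at 655 CPM in SD1, 487 in SD2, 241 in SD3, 554 in HFD1 and 607 in HFD2. In cluster 2 it was at 974, 695, 675, 601 and 345 CPM. Cluster 2 was higher in 4 libraries and macrophages in 1, HFD2, with a mean difference of −149 ± 270 CPM (n = 5; exact sign-flip p = 0.312). Thinned to 500 UMIs, 25.5% of macrophages and 27.3% of cluster 2 cells would show it, while the unthinned shares of those cells were 67.0% and 86.2%.

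Hspa8, the constitutive HSC70, was the member that separated macrophages from cluster 2 in every library. In macrophages it was at 808 CPM in SD1, 714 in SD2, 844 in SD3, 1082 in HFD1 and 835 in HFD2. In cluster 2 it was at 333, 225, 482, 468 and 253 CPM. The SD3 levels rest on 7 UMIs in macrophages and 10 in cluster 2, and the HFD1 level of cluster 2 on 7 UMIs. Those levels and their folds are uncertain. The groups did not overlap, and macrophages were higher by 2.43, 3.18, 1.75, 2.31 and 3.29-fold within the 5 libraries, with a mean difference of 504.5 ± 99.1 CPM (n = 5; exact sign-flip p = 0.0625, the smallest this design allows). Of the 2257 genes tested between the clusters, 18.7% were likewise lower in cluster 2 in all 5 libraries, and 31.2% were higher in all 5. Thinned to 500 UMIs, 36.7% of macrophages and 13.1% of cluster 2 cells would show Hspa8, compared with 76.5% and 63.8% before thinning.

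**Figure D3:**
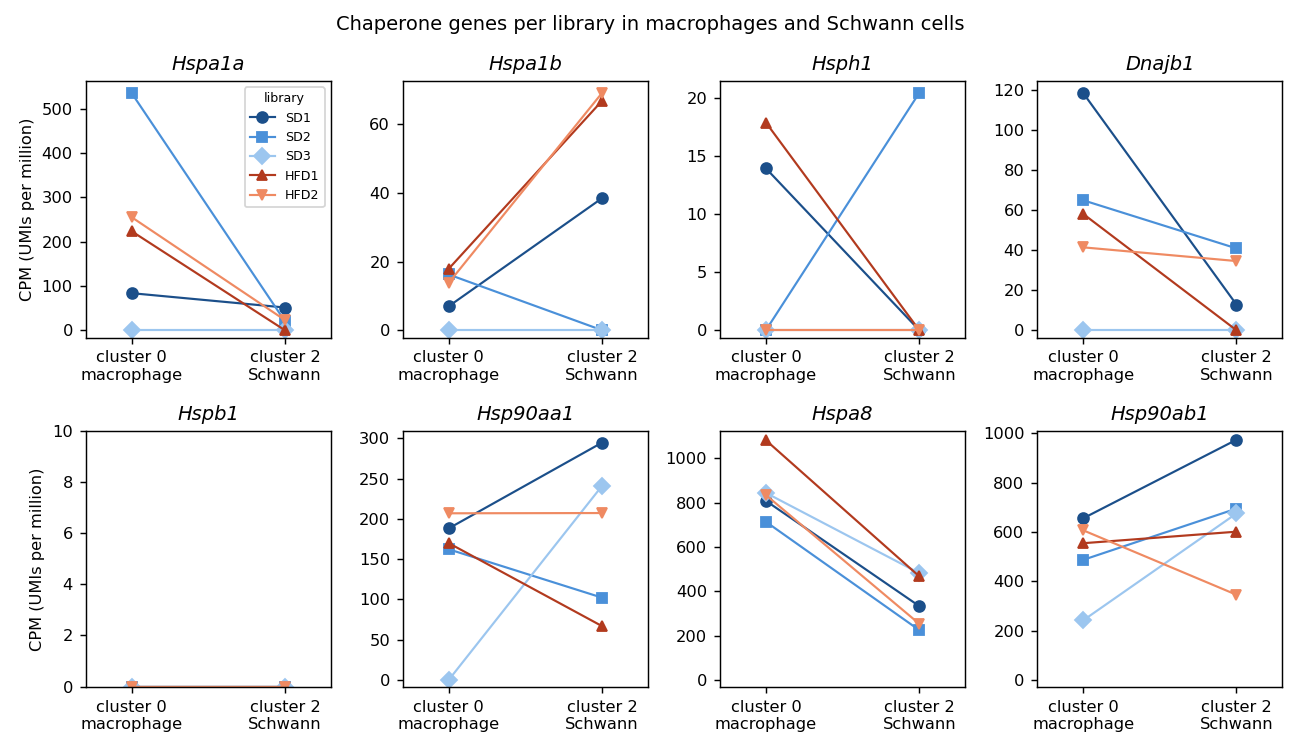
CPM of the 8 genes (y axes, separate scales) in cluster 0 and cluster 2, with the 2 points of a library joined by a line. The Hspa8 lines all fall from 714 to 1082 CPM in cluster 0 to 225 to 482 CPM in cluster 2, the Hspa1a and Dnajb1 lines fall or stay at 0, the Hsp90 lines cross, and Hspb1 is at 0 throughout.

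The same comparison was fitted across all genes with library as a block (edgeR quasi-likelihood test on UMI sums, Benjamini-Hochberg adjustment over 2257 genes). The clusters differ in most genes, and 57.2% of those tested were called at an adjusted p under 0.05, 27.3% lower and 29.9% higher in cluster 2. Of the 8 members 4 passed the filter on low counts, and 2 of them were called, both lower in cluster 2, a share close to that background. The log2 difference, cluster 2 minus cluster 0, was −3.30 ± 0.67 (standard error) for Hspa1a (edgeR adjusted p = 2.71e-06) and −1.62 ± 0.57 for Hspa8 (adjusted p = 0.00879). It was −0.26 ± 0.50 for Hsp90aa1 (adjusted p = 0.673) and −0.03 ± 0.55 for Hsp90ab1 (adjusted p = 0.965). The median of all genes was 0.31 on the same scale with TMM scaling and 0.90 with RLE scaling, and under RLE both HSP90 genes changed sign, to 0.33 for Hsp90aa1 and 0.47 for Hsp90ab1. Relative to the median of all genes, Hspa8 was at −1.93 and Hspa1a at −3.61. The edgeR p-values draw on the spread of all genes tested and do not read a gene's own spread alone. The exact sign-flip tests, on a gene's own CPM in the 5 libraries, gave p = 0.125 for Hspa1a and 0.0625 for Hspa8.

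The Hspa8 call was lost without SD1 (−0.78, edgeR adjusted p = 0.179), without SD2 (−0.84, adjusted p = 0.108), without HFD2 (−0.70, adjusted p = 0.222) and with clusters 1 and 2 joined as Schwann cells (−0.83, adjusted p = 0.184). In the 3 fits that left out a library the median of all genes rose with it, and Hspa8 relative to that median was −1.97, −2.02 and −1.88. Hspa1a did not pass the filter once the cell with the most Hspa1a UMIs was removed from each library and cluster, a check added after the values were seen, nor in the fit without the library block.

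The clusters were built by the authors from the same counts, so the classes were also drawn from marker genes alone, none of them a chaperone. This gave 147 cells with macrophage markers, 132 of them in cluster 0. It also gave 135 with Schwann markers, of which 72 were in cluster 1 and 58 in cluster 2. The 72 cluster 1 cells held 62700 of the 340057 UMIs of the Schwann-marker class. Most counts of the classes are thus those of clusters 0 and 2 again, so this is no independent check. Hspa8 was at 950, 712, 664, 979 and 744 CPM in the macrophage-marker cells of SD1, SD2, SD3, HFD1 and HFD2. It was at 361, 422, 455, 647 and 332 CPM in the Schwann-marker cells of the same libraries, lower in all 5 and below every macrophage-marker value. The fitted log2 difference was −1.29 ± 0.45 for Hspa8 (edgeR adjusted p = 0.0085) and −3.19 ± 0.59 for Hspa1a (adjusted p = 2.35e-07), with 1648 of 2990 genes called.

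Cluster 1, which the authors named mySC, mixed both classes. Its 10 macrophage-marker cells held 86 of its 145 Hspa8 UMIs, at 983 CPM, 43 of them in 1 SD1 cell of 13256 UMIs with 365 macrophage marker UMIs and 0 myelin marker UMIs. Its 72 Schwann-marker cells held 52 Hspa8 UMIs, at 829.3 CPM, which is above the 305 CPM of all cluster 2 cells. That level lies within the macrophage range of 714 to 1082 CPM over the libraries. The lower Hspa8 was thus seen in cluster 2 and not in these cells. These cluster 1 cells were shallow (median 576.5 UMIs, and 4230 in cluster 2). Their Hsp90ab1 level of 1116 CPM was also above the 653 CPM of cluster 2. No test was made within cluster 1.

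Split by class of gene, the inducible members made up 22.1% ± 14.2 of all chaperone UMIs in macrophages and 20.8% ± 9.42 in cluster 2 (SD, n = 5 libraries each), a difference within the spread. The macrophage mean includes SD3, with 0 of 9 UMIs (exact 95% interval 0 to 33.6%). In cells of at least 500 UMIs the share was 27.6% ± 7.74 in macrophages (n = 4, 21.9 to 38.8%). In cluster 2 it was 20.8% ± 9.42 (n = 5, 11.1 to 35.8%), so the ranges overlapped there too. Hsp90aa1 gave much of the inducible count in cluster 2, 52 UMIs of it. With Hsp90aa1 counted among the constitutive members, the share was 14.8% ± 11.1 in macrophages and 6.51% ± 4.86 in cluster 2. Macrophages ranged from 0% in SD3 to 31.1%, and cluster 2 from 0% to 13.6%, so that the ranges overlapped. In cluster 4 the inducible share was 32.4% ± 17.2 (n = 4), its highest value, 55.1%, in HFD2, the library with the Hspb1-rich cell.

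Lists of related genes gave the setting for these values, each read against the 57.2% called among all genes. Of 30 cytosolic co-chaperones and HSF1 targets, 11 were tested between the clusters, with a median log2 difference of −0.19 against 0.31 over all genes. Cryab and Dnajc7, a co-chaperone of HSP70 and HSP90, were higher in cluster 2 (Dnajc7 by 1.77 ± 0.53, edgeR adjusted p = 0.00203). Ier5, a stress-responsive partner of HSF1, was lower (−4.72 ± 0.70, edgeR adjusted p = 9.37e-11). Of 5 tested chaperones of the endoplasmic reticulum, Hspa5 (BiP) and Pdia3 were lower in cluster 2 (−1.76 ± 0.54, adjusted p = 0.0024, and −1.36 ± 0.52, adjusted p = 0.0163). Neither of the 2 tested subunits of the chaperonin TRiC nor the 1 tested mitochondrial chaperone was called, and Cct5, Cct8 and Hspe1 had log2 differences of 0.70, −0.03 and −0.08.

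Immediate early genes, which are induced within minutes of many stimuli, moved with Hspa1a and Hspa8 between the classes. All 20 were tested, all 20 were lower in cluster 2 than in macrophages, 17 were called, and their median log2 difference was −2.76. The log2 differences of the 2 with the lowest p were −6.04 ± 0.75 for Dusp1 and −5.98 ± 0.80 for Atf3 (edgeR adjusted p = 1.70e-14 and 9.05e-13). Their summed level was 36478 to 49193 CPM over the macrophages of the 5 libraries and 7809 to 16498 CPM over cluster 2, without overlap. Their part in the Hspa1a and Hspa8 differences was not tested.

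The study compared diets, and none of the members was called between SD and HFD in any fit. Over all cells 0 of the 5 members tested were called, where 0.0907% of 5510 genes were called (edgeR quasi-likelihood test, Benjamini-Hochberg adjustment). Hspa8 was at 738 CPM in SD1, 531 in SD2 and 477 in SD3, and at 873 in HFD1 and 608 in HFD2. The groups overlapped, and the log2 difference, HFD minus SD, was 0.53 ± 0.48 (adjusted p = 0.951). Folder names carry the number 4101 for SD1, SD2 and HFD1 and 4130 for SD3 and HFD2. These numbers are taken here as runs, which no label states. HFD was higher for Hspa8 within both. The log2 ratio of mean CPM was 0.46 in the run of SD1, SD2 and HFD1 and 0.35 in the run of SD3 and HFD2. Macrophage markers over all cells summed to 28390 CPM in HFD1, against 25869 in SD1 and 15240 in SD2. They summed to 20933 CPM in HFD2, against 11472 in SD3. The part of the cell mix in the Hspa8 values over all cells was not tested.

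Hspa1a over all cells was at 64.1, 239 and 0 CPM in SD1, SD2 and SD3, and at 146 and 132 CPM in HFD1 and HFD2. The HFD values fell inside the SD range (log2 difference 0.45 ± 0.78, edgeR adjusted p = 0.971). Within runs, HFD1 was close to the mean of SD1 and SD2 (146 against 152 CPM), and SD3 was at 0. Dnajb1 (−0.16 ± 0.71), Hsp90aa1 (−0.09 ± 0.48) and Hsp90ab1 (−0.21 ± 0.48) had adjusted p of 0.992, 0.995 and 0.981. Hsp90aa1 and Hsp90ab1 were lower in HFD within the run of SD1, SD2 and HFD1 (log2 ratios −0.67 and −0.59) and higher within the other (0.32 and 0.21).

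Within macrophages, 0 of the 4 members tested were called between SD1 and SD2 on one side and HFD1 and HFD2 on the other, where 0.0474% of 2108 genes were called. The log2 difference was −0.24 ± 0.66 for Hspa1a, 0.27 ± 0.29 for Hspa8, 0.02 ± 0.41 for Hsp90aa1 and −0.05 ± 0.32 for Hsp90ab1 (edgeR adjusted p from 0.943 to 0.996). The Hspa1a value changed with the libraries and cells counted. It was 1.22 without the top Hspa1a cell of each library (edgeR unadjusted p = 0.0376, adjusted p = 0.814), 1.39 without SD2 (unadjusted p = 0.0149, adjusted p = 0.475) and −1.15 without SD1 (unadjusted p = 0.0204, adjusted p = 0.312). Hspa8 in macrophages was higher in HFD by 0.51 on the log2 scale within the run of SD1, SD2 and HFD1 and had a log2 ratio of −0.02 within the run of SD3 and HFD2.

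Within cluster 2, 0 of the 3 members tested were called, where 0% of 1019 genes were called and 16 had an unadjusted p under 0.05. Hsp90ab1 was at 974, 695 and 675 CPM in SD1, SD2 and SD3 and at 601 and 345 CPM in HFD1 and HFD2, and the diets did not overlap (exact two-sided permutation p = 0.1, the smallest that 3 against 2 libraries allow). Of the genes tested, 7.75% were lower in HFD without overlap. The log2 difference was −0.89 ± 0.61 (edgeR unadjusted p = 0.154, adjusted p = 1.00), and HFD was lower within both runs, with log2 ratios of −0.47 and −0.97. Hspa8 (−0.07 ± 0.62) and Hsp90aa1 (−0.38 ± 0.78) overlapped between diets. The log2 ratio of Hspa8 was 0.75 within the run of SD1, SD2 and HFD1 and −0.93 within the other. Hspa1b, with 10 UMIs and not tested in the fit, was at 38.4, 0 and 0 CPM on SD and at 66.8 and 69.1 CPM on HFD, without overlap (exact two-sided permutation p = 0.2). The HFD1 value is 1 UMI, and a count of 0 allows up to 61.3 CPM in SD2 and 144.6 CPM in SD3. Among the genes that passed the filter, which Hspa1b did not, 10.3% were higher in HFD without overlap. The difference of the diet effect between cluster 2 and macrophages was tested directly, and 0 of 4 members and 0% of 2257 genes were called (25 at an unadjusted p under 0.05). It was −1.59 ± 1.27 for Hsp90ab1, −1.35 ± 1.67 for Hspa1a, −1.06 ± 1.12 for Hsp90aa1 and −0.74 ± 1.29 for Hspa8.

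**Figure D4:**
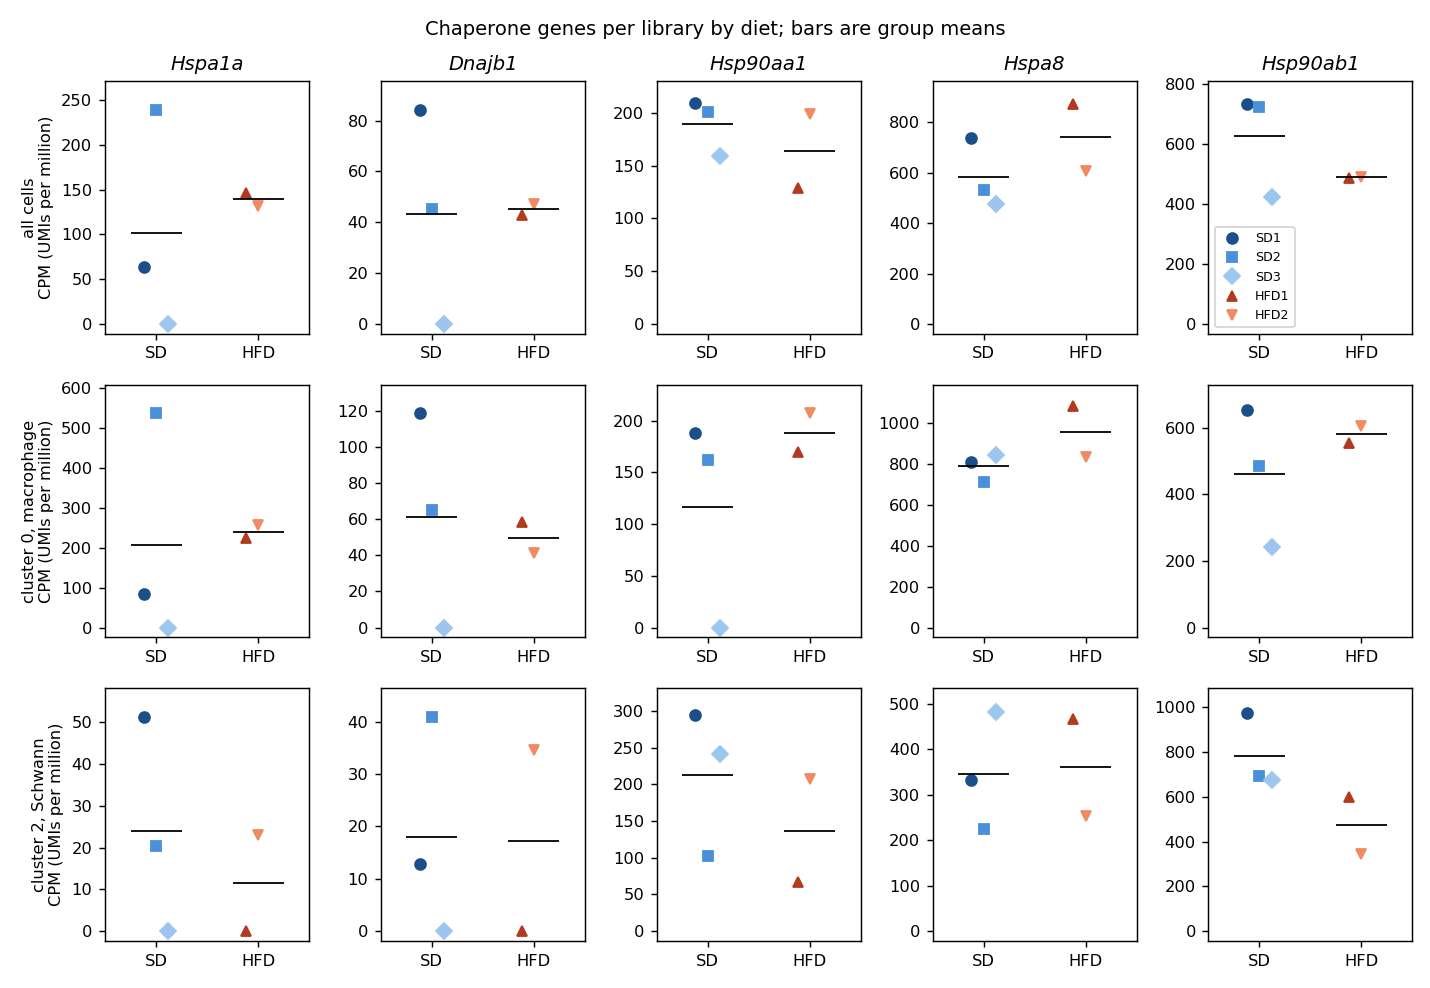
CPM of 5 members (columns) per library by diet in all cells, cluster 0 and cluster 2 (rows), with points for libraries and horizontal lines for group means. The Hsp90ab1 values in cluster 2 are 675 to 974 CPM on SD and 345 to 601 CPM on HFD, and the diets overlap in the other panels.

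The listed pathway genes gave no diet call either, in any of the 5 lists over all cells, in macrophages or in cluster 2. Over all cells, 19 of the 20 immediate early genes had a log2 difference above 0, with a median of 0.92 against 0.02 over all genes. In macrophages 13 of 20 were above 0, with a median of 0.24, and in cluster 2 8 of 14 tested, with a median of 0.28. Among all genes tested, 51.7% were above 0 over all cells, 50.4% in macrophages and 48.0% in cluster 2. The macrophage markers, over all cells, summed to 25869, 15240 and 11472 CPM in SD1, SD2 and SD3 and to 28390 and 20933 CPM in HFD1 and HFD2, and their part in the value over all cells was not tested. The co-chaperones and HSF1 targets had a median of −0.14 over 21 tested, and the chaperones of the endoplasmic reticulum −0.02 over 11.

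Neutrophil-like cells, a haemoglobin-rich cell and cluster 3 held few chaperone UMIs. The 5 neutrophil-like cells, all from HFD libraries, held 15 Hspa8 UMIs, 1 of Hspa1a and 1 of Dnajb1, and 0 of the HSP90 genes. The 1 haemoglobin-rich cell, of 24932 UMIs, held 0 UMIs of all 8 members. Cluster 3, named repairSC, held 9 Hspa8, 7 Hsp90ab1, 3 Dnajb1, 1 Hspa1a and 1 Hspa1b UMIs in 45 cells with a median of 261 UMIs. All of those Hspa8 UMIs, and the Hspa1a UMI, lay in its 2 HFD1 cells. Both of these cells are neutrophil-like and already counted above, with 3 and 6 Hspa8 UMIs. In the 3 libraries with at least 3 cluster 3 cells, its non-myelinating Schwann markers summed to 20282 to 65097 CPM. Over all cluster 3 cells 4 of those 7 markers were detected. Its macrophage markers summed to 38133 CPM in HFD2 and to 0 in SD2 and SD3.

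Over 21 sums of a library and cluster, the 5 genes whose log2(CPM + 50) followed the summed inducible members most closely were Sept7 (Pearson r = 0.79), Hint1 (0.78), Hmgb1 (0.73), Cfl1 (0.73) and Gas7 (0.73), among 1835 genes with at least 100 UMIs. The sums share libraries and differ in depth, and r is given as a description.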

How the data were processed

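The authors deposited raw UMI counts for 32285 gene symbols in 364 cell barcodes, with each barcode's library, cluster and cluster name, and the percent of its UMIs from mitochondrial genes, which was not used. The submitters' processing notes name Cell Ranger 3.1.0 and the build mm10. How cells were filtered, doublets treated and clusters made is not given in the sources used here, and no doublet caller was run. Libraries named Ctrl were read as SD, and HFD replicate 3 was not analysed here. Folder names in the library key carry the numbers 4101 (SD1, SD2, HFD1) and 4130 (SD3, HFD2), taken as runs.

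From the deposited counts, UMIs were summed per library, or per library and cluster with at least 3 cells (10 for the diet test in cluster 0, which left 2 libraries per diet). Tests on these sums used edgeR 4.0.16 (R 4.3.3), namely filterByExpr, TMM scaling and the robust quasi-likelihood test, with Benjamini-Hochberg adjustment over all genes tested and a threshold of 0.05. A standard error is the size of the log2 difference over the square root of F, an approximation. Exact permutation and sign-flip tests were two-sided and used CPM over all UMIs. Libraries held 37744 to 349450 UMIs. Floors are 3 counts, and exact intervals have a confidence level of 0.95. Marker classes needed at least 5 UMIs of 1 list and 4 times those of the other. Promoter windows are from RefSeq (GRCm38.p6), and gene positions and transcripts from GENCODE M21. The fitting steps were tested on simulated data.

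Genes named were the 8 members, genes of the 5 lists past the threshold (otherwise up to 2 of lowest p), and the 5 most alike genes, except that some listed genes are not reported here. Members and lists were chosen with earlier results of these data known. The alternatives tried were DESeq2 1.42.0, RLE scaling, no filter, each library left out, other cell and library minimums, marker classes, joined clusters, no library block, the replicate number as a block and run as a term. Single cells, marker splits of clusters 1 and 4 and the removal of top cells were chosen after values were seen.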

Additional observations from a re-analysis of the deposited data

Results flagged for a closer look

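In 7 of 37 groups of 4 or 5 libraries 1 library lay far from the others (gap to the nearest over the range, Dixon's 95% limit). Where only 1 library has a UMI this ratio is always 1.0, so the count of 7 cannot be set against chance. Hsp90aa1 in macrophages was lowest in SD3, at 0 CPM, where 8 cells were counted. Hspb1 over all cells was highest in HFD2, at 75.6 CPM, with 22 of 24 UMIs in 1 cell. Hspa8 in cluster 4 was lowest in SD2, at 146 CPM. The others were libraries with a UMI where the rest had none. Hspb1 reached 44.2 CPM in cluster 1 of SD2, Hsph1 20.4 CPM in cluster 2 of SD2 and 48.7 CPM in cluster 4 of SD2, and Hspa1b 40.6 CPM in cluster 4 of HFD1.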

How the results depend on the processing

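The count of genes called between diets over all cells was 5, and 9 with DESeq2, 47 without the filter, 57 with run as a term, 0 without neutrophil-like and haemoglobin-rich cells and 0 to 54 with a library left out (0 without SD1, 54 without HFD2). In cluster 0 it was 1, and 4 without the filter, 2 with run as a term, 0 without the top Hspa1a cells and 2 to 26 with a library left out (26 without SD1, 17 without HFD1). In cluster 2 it was 0, and 2 without the filter, 1 with run as a term, 3 with at least 10 cells per library and 0 to 4 with a library left out. The test of diet by cluster gave 0, 1 with cells of at least 500 UMIs and 0 to 1 with a library left out. Between the clusters 1290 genes were called, and 676 without the library block, where 955 were tested.

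No member was called between diets under any of these settings. With the replicate number as a block the counts were 33 over all cells and 5 in cluster 0. Same-numbered libraries had correlated deviations of 0.28 (number 1) and −0.087 (number 2), so the numbers were not taken as pairs. The block turned Hspa1a in cluster 0 to 0.02 and Hspa8 in cluster 2 to 0.24.

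Other diet differences near 0 changed sign (log2). Over all cells Hsp90aa1 was 0.05 without the filter and −0.23 to 0.12 with a library left out, and Dnajb1 was 0.14 with run as a term and −0.46 to 0.62 with a library left out. In cluster 0 Hsp90ab1 was 0.05 without the filter, 0.16 with at least 3 cells and −0.29 to 0.26 with a library left out, Hsp90aa1 was −0.14 with run as a term and −0.12 to 0.21, and Hspa1a was 1.22 without its top cells and −1.15 to 1.39. In cluster 2 Hspa8 was −0.36 to 0.25 with a library left out, and Hspa1a by diet and cluster −5.06 to 0.87.

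Between clusters Hspa1a stayed called in each of the 14 fits that tested it, from −3.64 to −1.79 (the latter without SD2), and Hspa8 in 12 of 16, from −2.02 to −0.70, with the calls lost as given above. Hsp90aa1 was 0.33 with RLE, 0.35 with DESeq2, 0.31 without the library block and −0.56 to 0.77 with a library left out. Hsp90ab1 was 0.47 with RLE, 0.49 with DESeq2, 0.42 without the library block, 0.05 with marker classes, 0.18 with clusters 1 and 2 joined and −0.42 to 1.13 with a library left out, called only without HFD2 (edgeR adjusted p = 0.0419). Counted with Hsp90aa1 as constitutive, the inducible share in cluster 2 was 6.51%. The cause of these changes was not tested. Depth limits Hspa1b, Hsph1, Dnajb1 and Hspb1, which had 8 to 62 UMIs.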
